A study of Sus scrofa with 23 samples.

Results

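FKBP5 and FBXO32 are 2 of the 6765 pig genes that a probe set with a single gene symbol represented on a porcine Affymetrix expression array, and 4 of 10069 such probe sets belong to them, 2 for each gene. In the platform annotation they carry the Entrez identifiers 100155423 and 733657. They were put in 1 group as genes known to respond to glucocorticoids. They were chosen by their signals between the stages of these same arrays, and their levels are therefore given as a description, with no test. The arrays held 23 samples of offspring of German Landrace gilts, and each gilt had received the gestational low protein diet, so that the groups differ by age and share the diet. The groups were 94 dpc (fetuses, 5 samples), 1 dpn (newborns, 6 samples), 28 dpn (6 samples) and 188 dpn (6 samples), where dpc and dpn were read as days post conception and days post natum. Offspring of 3 gilts were collected at each stage, so some of its 5 or 6 samples share a dam that the labels leave unnamed, which makes the spread and the p-values of a stage too small if littermates are alike. Every sample was labelled liver, whereas the title of the study names muscle. The signals of 12 of 15 listed skeletal muscle markers had a median percentile of 99.4 to 99.9 on the single arrays, against 14.6 to 89.3 for 14 of 15 hepatocyte markers. Below, "samples" stands for these samples labelled liver.

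FKBP5 encodes a co-chaperone that binds HSP90 in the unliganded glucocorticoid receptor complex and lowers the affinity of the receptor for its hormone. The gene is itself a target of the receptor, which closes a short feedback loop, and its messenger RNA is widely used as a readout of glucocorticoid action. FBXO32, also called atrogin-1 or MAFbx, encodes the muscle F-box protein that hands substrates to an SCF ubiquitin ligase. It is raised in muscle wasting, fasting and glucocorticoid treatment, in rodents through FOXO transcription factors and the glucocorticoid receptor. Cortisol rises in the pig fetus towards birth, and no hormone was measured here.

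The deposited values were linear signals in scaled units. In 3 samples of 1 dpn (replicates 2, 4 and 5) the 5′ to 3′ signal ratio of the GAPDH control probe sets lay between 0.0868 and 0.148, against 1.09 to 1.29 in the other 20 samples, which is a sign of shorter RNA or cDNA. A second pair of GAPDH control probe sets showed a smaller gap. Its ratio was 0.273, 0.411 and 0.522 in these replicates, against 0.659 to 0.923 in the other 20 samples. Below, a low GAPDH ratio refers to the first pair. The main results that involve 1 dpn are therefore given with and without these 3 samples. The samples of 1 dpn were also less alike, with a median pairwise correlation of 0.905 across probe sets, against 0.931 to 0.951 at the other stages. In the tissue pieces used, fewer cells of a type and less RNA per cell cannot be told apart.

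FKBP5 was low in all fetuses, and its mean was 6.14- to 14.4-fold higher at the later stages by its brighter probe set. This probe set had signals of 74.5, 119, 107, 83.2 and 78.1 in the 5 fetuses. In the 6 newborns it had 269.6, 5867, 1480.5, 3567, 891 and 1607, in the order of replicates 1 to 6. All newborns lay above all fetuses, and the newborns themselves spread widely, with replicate 2 highest and replicate 1 lowest. At 28 dpn the 6 signals were 546, 452, 714, 486, 1141 and 699. At 188 dpn they were 1266, 1405, 1125, 1051, 967 and 801. The groups of 28 dpn and 188 dpn overlapped each other and the newborns, and neither reached down to the fetuses.

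The stage means of this FKBP5 probe set were 92.3 ± 19.5 at 94 dpc (SD, n = 5), 2280.2 ± 2078 at 1 dpn, 673 ± 254 at 28 dpn and 1103 ± 215 at 188 dpn (SD, n = 6 each). Differences are given on the log2(signal + 16) scale, with the standard error of a linear model of all 23 samples, and folds are taken on the same scale. The model takes 1 spread for all stages. The SD of log2 signal was 1.53 at 1 dpn and 0.25 to 0.48 at the other stages, and 1.63 and 0.49 to 0.53 for the brighter FBXO32 probe set. With all samples, these standard errors are therefore too narrow for pairs with 1 dpn and too wide for the other pairs. FKBP5 was higher by 3.85 ± 0.48 at 1 dpn than at 94 dpc, which is 14.4-fold. Without the 3 newborns of low GAPDH ratio the difference was 3.05 ± 0.42, or 8.28-fold, and the groups still did not overlap. Over all 23999 probe sets tested, 4.2% were higher at 1 dpn than at 94 dpc without overlap. With the 3 samples left out, 8.59% were.

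The later stages kept FKBP5 above its fetal level. The difference of 28 dpn from 94 dpc was 2.62 ± 0.48 (6.14-fold), and 7.83% of all probe sets were higher without overlap between these stages. That of 188 dpn from 94 dpc was 3.36 ± 0.48 (10.3-fold), where 10.7% of all probe sets were higher without overlap. Among the postnatal stages the FKBP5 samples overlapped in each pair. The difference was -1.23 ± 0.46 for 28 dpn against 1 dpn, and -0.43 ± 0.41 without the 3 newborns. It was 0.75 ± 0.46 for 188 dpn against 28 dpn, with 2 of 6 samples of 188 dpn above the highest of 28 dpn. For 188 dpn against 1 dpn it was -0.48 ± 0.46, and the sign turned to 0.32 ± 0.41 without the 3 newborns. In the order of mean log2 signal, 94 dpc was lowest, then 28 dpn, 188 dpn and 1 dpn, and each neighbouring pair above 94 dpc overlapped.

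The dimmer FKBP5 probe set followed the same order of stages with smaller differences. Its signals were 12.0, 39.0, 47.7, 6.89 and 60.6 at 94 dpc, and 97.7, 183, 258, 178, 18.5 and 162 at 1 dpn. At 28 dpn it had 26.9, 25.0, 53.2, 98.9, 125 and 13.0, and at 188 dpn 147, 118, 119, 164, 71.6 and 29.8. The samples overlapped between all 6 pairs of stages. Replicate 5 was the only newborn within the fetal range. The difference of 1 dpn from 94 dpc was 1.65 ± 0.50 (3.14-fold), and 1.99 ± 0.54 without the newborns of low GAPDH ratio, when the groups no longer overlapped. For 188 dpn against 94 dpc it was 1.35 ± 0.50, with 5 of 6 samples above the highest fetus, and for 28 dpn against 94 dpc it was 0.48 ± 0.50. Over the 23 samples, which share their stages, the log2 values of both FKBP5 probe sets had a Pearson r of 0.66.

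FBXO32 had another time course, with its high level at 188 dpn. Its brighter probe set had signals of 1429, 933, 776, 580.5 and 638 at 94 dpc. In the newborns it had 641, 10421, 658, 2194, 1125 and 5064, again in the order of replicates 1 to 6. Replicates 2, 4 and 6 lay above every fetus, and replicates 1, 3 and 5 lay among the fetuses. At 28 dpn the signals were 796, 1139, 749, 636, 1617 and 1381. At 188 dpn they were 10712, 4961, 5226, 3885, 4935 and 5734. Each sample of 188 dpn was above each sample of 94 dpc and of 28 dpn, and newborn replicates 2 and 6 reached into the range of 188 dpn.

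This FBXO32 probe set averaged 871 ± 340 at 94 dpc (SD, n = 5), 3350.5 ± 3842 at 1 dpn, 1053 ± 391 at 28 dpn and 5909 ± 2429 at 188 dpn (SD, n = 6 each). It was higher by 2.47 ± 0.51 at 188 dpn than at 28 dpn, which is 5.55-fold, and 4.45% of all probe sets were higher without overlap between these stages. Against 94 dpc, 188 dpn was higher by 2.74 ± 0.53, which is 6.66-fold. The difference of 188 dpn from 1 dpn was 1.51 ± 0.51 with overlap, and 2.10 ± 0.51 without the newborns of low GAPDH ratio. Newborns differed from fetuses by 1.23 ± 0.53, by 0.64 ± 0.52 without those 3 samples and by 0.75 without replicate 2 alone. For 28 dpn against 1 dpn the difference was -0.97 ± 0.51, and -0.37 ± 0.51 without the 3 samples. FBXO32 at 28 dpn and 94 dpc differed by 0.26 ± 0.53, less than the spread between samples. The order of mean log2 signal was 94 dpc, 28 dpn, 1 dpn and 188 dpn, and each neighbouring pair overlapped.

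The other FBXO32 probe set separated 188 dpn from all earlier stages. It had 752, 448, 412, 186 and 131 at 94 dpc and 214, 892, 284, 172, 145 and 1735 at 1 dpn. At 28 dpn its signals were 221, 273, 165, 131, 541 and 394, and at 188 dpn 5635, 2948, 2483, 2157, 2916 and 3264. The lowest sample of 188 dpn was above newborn replicate 6, the highest of the earlier samples. FBXO32 by this probe set was higher at 188 dpn by 3.50 ± 0.51 than at 28 dpn (11.3-fold), by 3.00 ± 0.51 than at 1 dpn (8.01-fold) and by 3.19 ± 0.53 than at 94 dpc (9.11-fold). Between 188 dpn and 1 dpn, 6.78% of all probe sets were higher without overlap. The difference between 1 dpn and 94 dpc was 0.19 ± 0.53, against 1.23 by the brighter probe set. With all samples, a newborn level of FBXO32 above the fetal one thus rests on 1 of 2 probe sets. Without the newborns of low GAPDH ratio this difference was 0.54 ± 0.60, against 0.64 ± 0.52 by the brighter probe set. That of 188 dpn from 1 dpn was then 2.65 ± 0.58 by the other probe set. The Pearson r of both FBXO32 probe sets over 23 samples was 0.88.

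**Figure D1:**
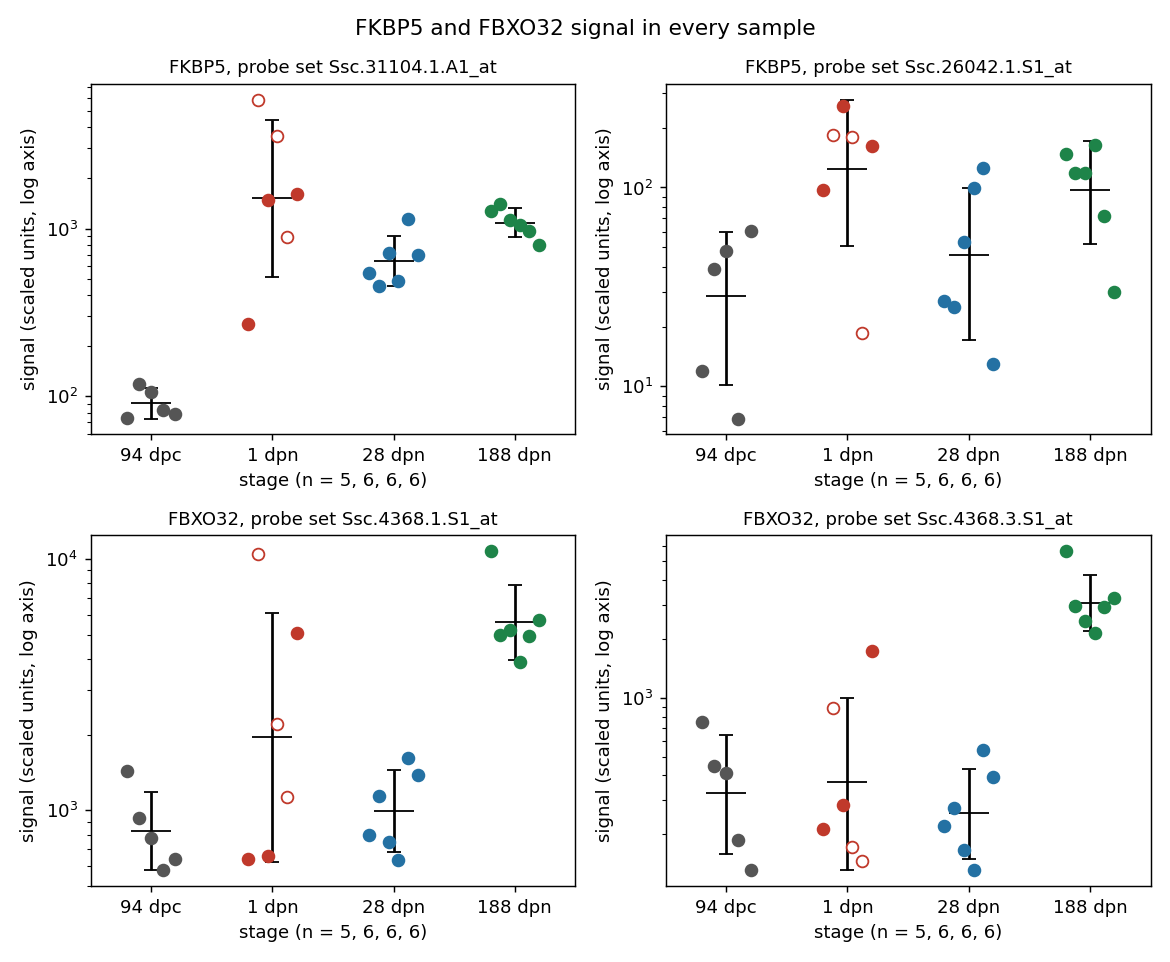
Signal of the 4 probe sets of FKBP5 and FBXO32 (scaled units, log axis) in each of the 23 samples by stage, with open circles for the 3 newborns of low GAPDH ratio and bars for the mean ± SD computed on the log2 scale. The brighter FKBP5 probe set lies between 74.5 and 119 in all fetuses and at 269.6 or more in all later samples, and both FBXO32 probe sets are high in all 6 samples of 188 dpn.

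Marker signals of cell types were summed and compared between the stages. The summed signal of the 12 skeletal muscle markers was 342384 to 400674 at 94 dpc, 416277 to 720941 at 1 dpn, 517742 to 869329 at 28 dpn, and at 188 dpn it reached 742947 to 967872. The 14 hepatocyte markers summed to 12095 to 39679 at 94 dpc, 4778 to 21463 at 1 dpn, 2034 to 35624 at 28 dpn and 3139 to 28698 at 188 dpn, ranges that overlap in every pair of stages. The sum of 7 endothelial markers was 3419 to 5485 at 1 dpn, against 9131 to 15130 at 94 dpc (all 7 listed were measured). At 188 dpn it was 2738 to 4141, against 6424 to 9165 at 28 dpn. The 6 measured macrophage markers of 9 summed to between 1344 and 2893 at 188 dpn, against 4474 and 12956 at 28 dpn, while the 6 measured adipocyte markers of 8 gave between 3391 and 5360 at 188 dpn, against 6614 and 12395 at 28 dpn. No measured marker of these lists was at 0 in any sample, the lowest being TAT in 1 newborn at 1.45. The part of tissue composition in the FKBP5 and FBXO32 differences was not tested.

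By the brighter probe set of each gene, the newborns differed among themselves more for FKBP5 and FBXO32 than for most probe sets. The spread within stages was known when the genes were chosen, so this is a description. The SD of log2 signal at 1 dpn was 1.53 for FKBP5 and 1.63 for FBXO32, at percentile 98.9 and 99.2 of the SDs of the 11634 probe sets with a mean above the median at that stage. A wide spread of FBXO32 was not confined to newborns, with percentiles of 90.6 at 94 dpc, 90.7 at 28 dpn and 88.4 at 188 dpn. FKBP5 had 87.0 at 28 dpn and 53.7 at 188 dpn. The other FBXO32 probe set had 99.3 in fetuses, 98.4 in newborns, 96.6 at 28 dpn and 86.8 at 188 dpn. By the brighter probe sets, the highest newborn exceeded the lowest 21.8-fold in FKBP5 and 16.3-fold in FBXO32. The range of these probe sets at 188 dpn was 1.75-fold and 2.76-fold. Replicate 2 was highest in both genes and replicate 1 lowest in both by these probe sets, and the order between them differed. The other FKBP5 probe set was highest in replicate 3 (258) and lowest in replicate 5 (18.5). That of FBXO32 was highest in replicate 6 (1735) and lowest in replicate 5 (145). By its brighter probe set FKBP5 averaged 3442 ± 2490.3 in the 3 newborns of low GAPDH ratio and 1119 ± 738 in the other 3 (SD, n = 3 each). FBXO32 averaged 4580.2 ± 5087 and 2121 ± 2549 in the same groups by its brighter probe set. The other probe sets went the opposite way, with 127 ± 93.6 and 172 ± 80.7 for FKBP5. For FBXO32 the other probe set gave 403 ± 424 and 744 ± 859. Within each of these groups FKBP5 spanned 6.59-fold and 5.96-fold by the brighter probe set. FBXO32 spanned 9.26-fold and 7.90-fold by its brighter one. The hepatocyte marker sum moved with the same split, with 21463, 20312 and 17294 in newborn replicates 2, 4 and 5 of low GAPDH ratio, against 8545, 4778 and 9056 in replicates 1, 3 and 6. The part of RNA quality and of hepatocyte RNA in the newborn values was not tested.

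**Figure D2:**
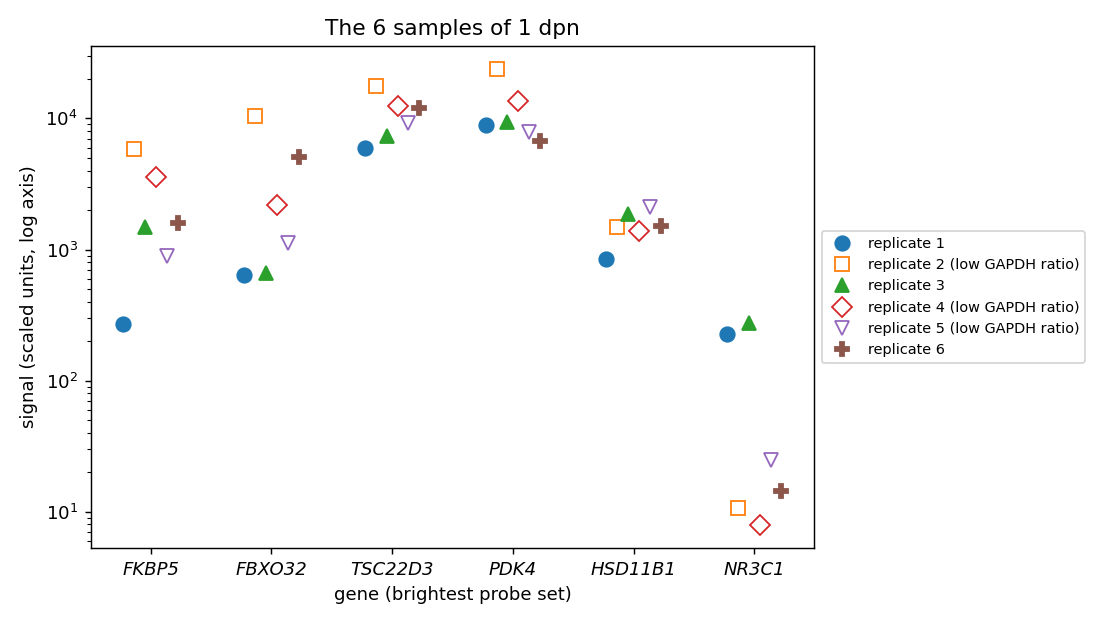
Signal (scaled units, log axis) of the brightest probe sets of FKBP5, FBXO32, TSC22D3, PDK4, HSD11B1 and NR3C1 in the 6 newborns, with 1 symbol per replicate and open symbols for a low GAPDH ratio. Heights are comparable within a gene only. Replicate 2 is the highest in the first 4 genes, and replicates 1 and 3 stand alone at 227 and 275 in NR3C1.

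The genes most like each of the pair were sought by Pearson r of log2 signal over the 23 samples, among 4962 genes brighter on average than the median probe set. The samples share stages and dams, so the values are descriptions. For FKBP5 the closest was TSC22D3 (r = 0.95), which encodes the glucocorticoid-induced leucine zipper. BAG3, an HSP70 co-chaperone that keeps damaged muscle proteins in turnover, followed at 0.93, then LPIN1, a phosphatidate phosphatase (0.91), ABHD4, a phospholipid hydrolase (0.91), and ASB8, a substrate adaptor of ubiquitin ligases (0.90). The other BAG3 probe set differed by 0.28 at 1 dpn against 94 dpc, against 1.84 by the one used. At 28 dpn against 1 dpn these values were 0.15 and -0.82, and at 188 dpn against 94 dpc 1.73 and 1.91. For FBXO32 the closest was KLF15 (r = 0.92), a transcription factor of muscle metabolism induced by glucocorticoids. SQSTM1, the autophagy receptor p62, had 0.88, NDRG2 had 0.85, RETREG2, a receptor for autophagy of the endoplasmic reticulum, had 0.84, and PSME4, a proteasome activator, had 0.82. FKBP5 and FBXO32 correlated with each other at 0.65, which ranked FBXO32 at 280 for FKBP5 and FKBP5 at 118 for FBXO32. In deviations from the stage means, FKBP5 and FBXO32 had an r of 0.69, FKBP5 and TSC22D3 0.77, and FBXO32 and KLF15 0.84. Without the 3 newborns of low GAPDH ratio, the r with TSC22D3 was 0.93 for FKBP5, and that with KLF15 was 0.94 for FBXO32. The stage differences of TSC22D3, KLF15 and SQSTM1 given below come from the same samples and are not separate support for these likenesses.

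Animals within a stage were then compared at 28 dpn and 188 dpn. The spread within stages was known when the genes were chosen, so the 8 correlations (4 pairs of genes at 2 stages, n = 6 each) are given as descriptions, with no test. FBXO32 and PDK4 had r = 0.88 and rho = 0.89 at 28 dpn, and r = 0.65 and rho = 0.89 at 188 dpn. Without the 2 samples farthest from the FBXO32 median these r were 0.89 and 0.68, and without single samples they lay between 0.80 and 0.95 at 28 dpn and between 0.47 and 0.84 at 188 dpn. The pair itself was less steady. FKBP5 and FBXO32 had r = 0.62 and rho = 0.43 at 28 dpn, with r between 0.20 and 0.83 when single samples were left out and 0.62 without the 2 farthest from the FKBP5 median. At 188 dpn the same pair had r = 0.25 and rho = 0.14, with r between -0.30 and 0.47 without single samples and 0.82 without 2. FKBP5 and TSC22D3, its closest gene over all samples, had r = 0.59 and rho = 0.60 at 28 dpn, where r was -0.14 without 2 samples, and r = 0.39 and rho = 0.49 at 188 dpn, where it was 0.43. FKBP5 and PDK4 had r = 0.38 and rho = 0.09 at 28 dpn and r = 0.13 and rho = 0.03 at 188 dpn, and without 2 samples r was -0.02 and 0.86. The FKBP5 correlations thus depended on single samples. The newborns fall into separate groups of GAPDH ratio and the fetuses number 5, so no correlation was computed there.

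Around FKBP5, the receptor, its chaperones, its coregulators and the enzymes that set local cortisol were compared between stages (14 of 16 listed genes measured). Called means an adjusted p under 0.05 in the linear model of all probe sets. At 1 dpn against 94 dpc 4 were higher, 3 lower and 7 did not pass, against 13.7% of all 6765 genes higher and 19.4% lower. After centring each array on its median 7 were higher and 1 lower, and without the 3 newborns of low GAPDH ratio 5 and 4. As deposited, the lower genes were NR3C1 and the coregulators NCOA1 (-0.81, adjusted p = 0.005) and NCOA2 (-0.82, adjusted p = 0.021). The NCOA2 call was lost under quantile normalization (adjusted p = 0.11) and under centring (adjusted p = 0.13). HSD11B1, which regenerates active cortisol inside cells, had signals of 851 to 2115 in newborns and 314 to 490.1 in fetuses, and rose by 1.81 ± 0.21 (adjusted p = 1.7e-06), or by 1.67 without those 3 newborns (adjusted p = 7.2e-05). It was also higher at 188 dpn than at 94 dpc, by 1.54 ± 0.21 (adjusted p = 3.4e-06). FKBP4, the relative of FKBP5 that binds the same complex, was higher by 0.86 ± 0.23 at 188 dpn than at 94 dpc (adjusted p = 0.004). At that comparison 7 of the 14 genes were higher and 1 was lower, against 19.5% and 27.4% of all genes, with PTGES3, the HSP90 co-chaperone p23, higher by 1.22 ± 0.26 (adjusted p = 0.00049). The lower gene was NCOA1, with -1.18 ± 0.21 (adjusted p = 7e-05). HSPA8 was among the 7 by its brightest probe set, while the other 3 of its 4 probe sets passed as lower. The median of the 14 was 0.27 as deposited, against -0.08 for all genes, and it turned to -0.09 after quantile normalization.

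NR3C1, which encodes the glucocorticoid receptor, fell at 1 dpn by its brightest probe set. Its signals were 227, 10.6, 275, 7.85, 24.6 and 14.3 in newborn replicates 1 to 6, against 828, 575, 870.0, 419 and 379 in the fetuses. The difference was -3.28 ± 0.53 (adjusted p = 6.6e-05), and -2.21 without the 3 newborns of low GAPDH ratio (adjusted p = 0.0041). Replicate 6, whose GAPDH ratio was not low, was as dim as those 3, and the FKBP5 signal of the dim NR3C1 samples ranged from 891 to 5867. The other 3 NR3C1 probe sets did not pass, with differences of 0.12, 0.90 and -0.41. The receptor therefore has 1 of 4 probe sets that changed. At 28 dpn the bright probe set was higher than at 1 dpn by 2.22 ± 0.50 (adjusted p = 0.0033), a call lost without the 3 newborns (adjusted p = 0.15).

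Of 42 listed glucocorticoid targets besides FKBP5 and FBXO32, 30 were measured. At 1 dpn against 94 dpc, the comparison in which FKBP5 differed most, 12 were higher, 2 lower and 16 did not pass, against 13.7% of all genes higher and 19.4% lower, with a median of 0.59 against -0.06 for all genes. Without the 3 newborns of low GAPDH ratio 10 targets were higher and 2 lower, and the median was 0.25. PDK4, the kinase that blocks pyruvate use, rose by 4.68 ± 0.43 (adjusted p = 6.1e-08, 25.7-fold), and by 4.31 without them. AGT, angiotensinogen, rose by 4.26 ± 0.50 (adjusted p = 1.6e-06), and by 3.68 without them. TSC22D3 averaged 10797 ± 4255 in newborns and 2957 ± 781 in fetuses (SD) and rose by 1.81 ± 0.23 (adjusted p = 3.9e-06), or by 1.48 without those newborns, while its other probe set differed by -0.04. MSTN, myostatin, fell by 2.42 (adjusted p = 5.1e-05), and by 3.05 without them, although it is listed as a gene that glucocorticoids raise. SGK1, a kinase induced by glucocorticoids, had -0.33 ± 0.38 (adjusted p = 0.58), and it passed as lower, with -0.95, without the 3 newborns of low GAPDH ratio (adjusted p = 0.042). KLF15 had 0.66 ± 0.35 (adjusted p = 0.18), and -0.04 without the 3 newborns (adjusted p = 0.94). It passed without newborn replicate 1 (0.96, adjusted p = 0.018) and under quantile normalization (0.93, adjusted p = 0.048).

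At 28 dpn against 1 dpn, where FKBP5 and FBXO32 had negative differences within overlapping samples, 1 target was higher and 10 were lower, against 13.5% of all genes higher and 10.6% lower. Without the 3 newborns these counts were 1 and 3. PER1, a clock gene induced by glucocorticoids, fell by 1.55 (adjusted p = 0.00061) and still by 1.05 without them (adjusted p = 0.011). PNMT, the enzyme of adrenaline synthesis, fell by 3.11 (adjusted p = 1.4e-05), and by 3.31 without them (adjusted p = 0.00024). The comparisons of newborns with fetuses and of 28 dpn with newborns share the newborn samples, and both comparisons with 94 dpc share the fetuses.

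At 188 dpn against 28 dpn, where FBXO32 did not overlap, 6 of the 30 targets were higher and 2 lower, against 5.78% and 12.5% of all genes, and the counts of called targets varied between 5 and 10 when single samples were left out. KLF15 averaged 916 ± 137 at 188 dpn and 383 ± 97.0 at 28 dpn (SD, n = 6 each) and rose by 1.25 ± 0.33 (adjusted p = 0.012). It had ranked closest to FBXO32 over these same samples, so this p is not separate support for a shared course. PDK4 rose by 1.29 ± 0.41 (adjusted p = 0.036), a call lost without any 1 of 28 dpn replicates 1, 3 and 4 and 188 dpn replicates 1, 2, 3 and 6, where the adjusted p was 0.059 to 0.1. The PDK4 call was also lost under quantile normalization (adjusted p = 0.055) and in the fit of both stages alone (adjusted p = 0.063). ANGPTL4, an inhibitor of lipoprotein lipase, fell by 1.46 (adjusted p = 0.0035). Against 94 dpc, 188 dpn had 10 of 30 targets higher and 5 lower, against 19.5% and 27.4% of all genes. TSC22D3 was then higher by 1.47 ± 0.23 (adjusted p = 1.6e-05) and KLF15 by 1.29 ± 0.35 (adjusted p = 0.0045), while SGK1 fell by 1.03 (adjusted p = 0.034). The SGK1 call was lost under quantile normalization (adjusted p = 0.063), under centring (adjusted p = 0.13) and without any 1 of 94 dpc replicates 2, 3 and 5 and 188 dpn replicates 3, 4, 5 and 6 (adjusted p = 0.058 to 0.076).

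**Figure D3:**
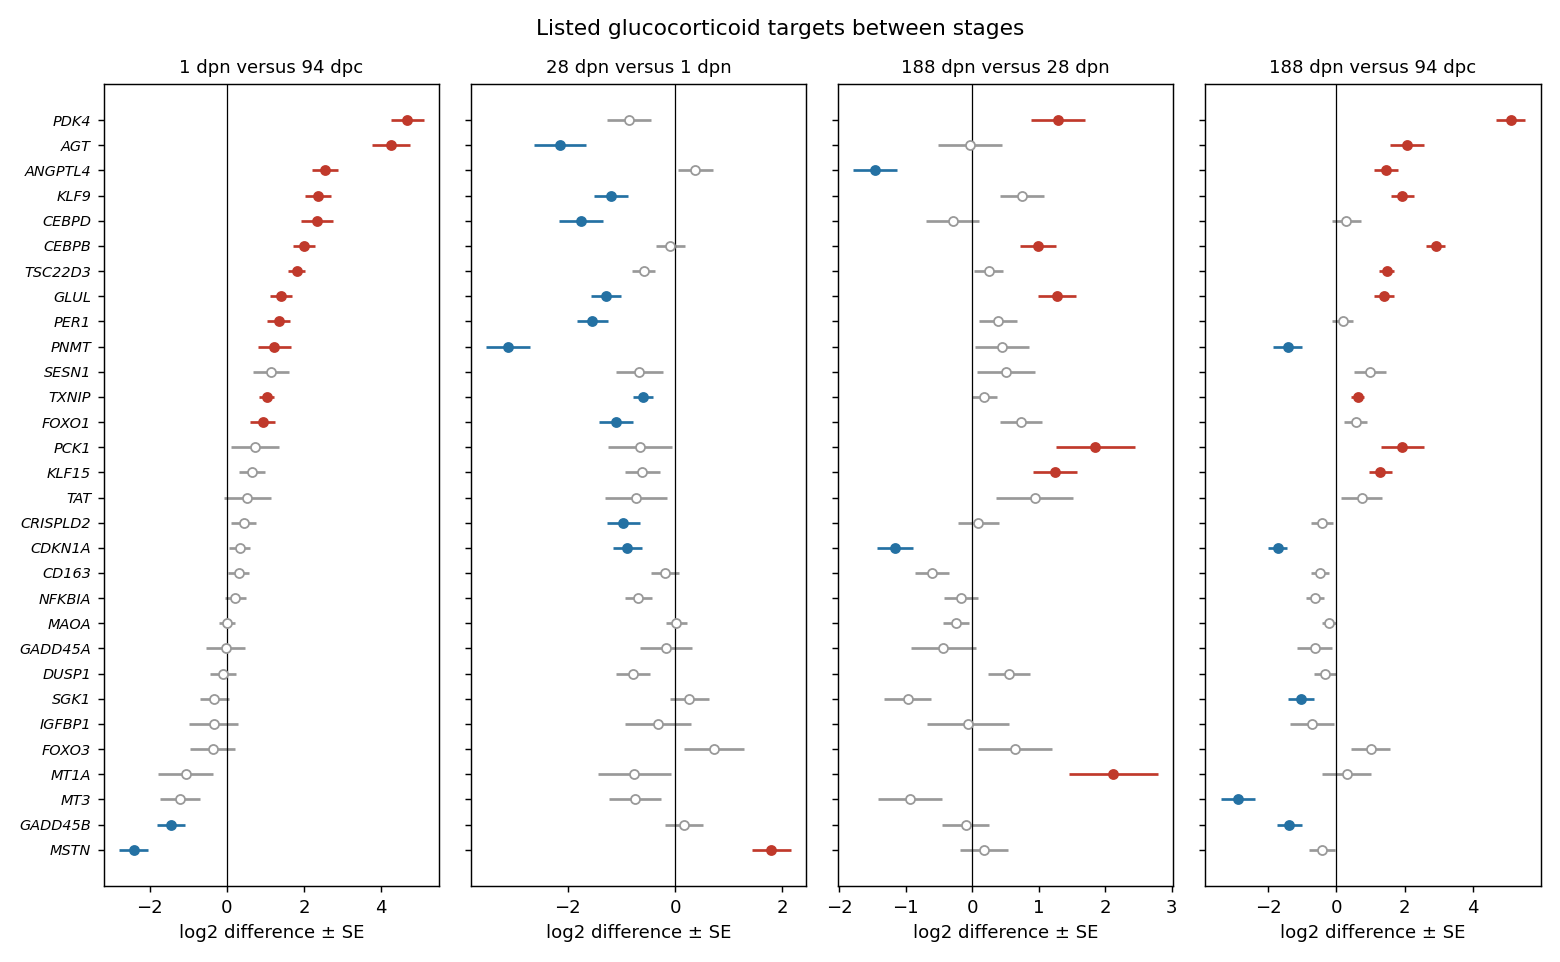
Log2 difference ± SE of the 30 measured glucocorticoid targets in 4 comparisons of stages, ordered by the first, with red for genes called higher, blue for called lower and open grey circles for genes that did not pass. 12 genes are red in the first panel and 10 are blue in the second.

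Around FBXO32, 16 of 30 listed genes of muscle atrophy, ubiquitin ligation and autophagy were measured. TRIM63, the other muscle ubiquitin ligase of atrophy, was not analysed here. In the comparison of 188 dpn with 28 dpn, where FBXO32 was higher, 2 of the 16 were higher, none lower and 14 did not pass, against 5.78% of all genes higher and 12.5% lower. SQSTM1 rose by 1.67 ± 0.29 (adjusted p = 3e-04) and FBXO31, another F-box protein, by 0.90 ± 0.20 (adjusted p = 0.0039). The count was 4 without the newborns of low GAPDH ratio or without newborn replicate 2. FOXO1, which encodes an activator of FBXO32, differed by 0.74 ± 0.32 without overlap of its samples (adjusted p = 0.14). It passed without the 3 newborns of low GAPDH ratio (adjusted p = 0.0041) and without newborn replicate 2 (adjusted p = 0.036), which enter only the estimate of the spread. FOXO3 differed by 0.64 ± 0.55 (adjusted p = 0.52). At 1 dpn against 94 dpc 4 were higher and 2 lower, against 13.7% and 19.4% of all genes, or 5 and 3 without the 3 newborns. FOXO1 rose there by 0.93 ± 0.33 (adjusted p = 0.044), a call lost without the 3 newborns (adjusted p = 0.46) and without any 1 of the 5 fetuses, newborn replicates 2, 4 and 6, 28 dpn replicate 6 and 188 dpn replicate 4 (adjusted p = 0.05 to 0.11). BNIP3L, a mitophagy receptor, fell by 1.55 in that comparison (adjusted p = 7e-05), and by 1.91 without the 3 newborns (adjusted p = 1.2e-05).

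At 28 dpn against 1 dpn 1 of the 16 atrophy genes was higher and 6 lower, against 13.5% and 10.6% of all genes, or 2 and 2 without the 3 newborns. ATG4B, the protease that processes autophagosome proteins, fell by 1.40 (adjusted p = 5.8e-05), and by 1.01 without them (adjusted p = 0.0036). SQSTM1 fell by 1.05 (adjusted p = 0.013), a call lost without them (adjusted p = 0.23). At 188 dpn against 94 dpc 6 were higher and 3 lower, against 19.5% and 27.4% of all genes, with SQSTM1 higher by 2.25 ± 0.30 (adjusted p = 1.9e-06), MAP1LC3A, an autophagosome protein, by 1.78 ± 0.38 (adjusted p = 0.00069) and FBXO31 by 1.69 ± 0.21 (adjusted p = 9.1e-07). FOXO1, FOXO3 and MSTN stand in both the target list and the atrophy list.

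The SCF ligase and substrates reported for FBXO32 were represented by 8 of 12 genes. MYOD1, a myogenic transcription factor that FBXO32 marks for degradation in mouse cells, fell in RNA by 1.50 at 188 dpn against 28 dpn (adjusted p = 5e-04) and by 2.16 against 94 dpc (adjusted p = 1.6e-06), the comparisons in which FBXO32 did not overlap. At 188 dpn against 94 dpc VIM also fell (-1.52, adjusted p = 4.3e-07), while DES went the other way (0.69, adjusted p = 0.008). The DES call was lost under quantile normalization (adjusted p = 0.43). Protein, on which degradation acts, was not measured. Over the 4 comparisons, taken in the order of the plot of called genes, the list had 1, 1, 0 and 3 genes higher and 2, 0, 2 and 3 lower. Over all genes, 13.7%, 13.5%, 5.78% and 19.5% were higher and 19.4%, 10.6%, 12.5% and 27.4% lower, so that most of these counts lie within about 1 gene of the background. After quantile normalization the list had 0 higher and 1 lower in the first comparison, and after centring 3 and 1. Of 10 measured genes of the 19 of the IGF1 and AKT pathway, which restrains FOXO factors, 2, 1, 0 and 1 were higher and 1, 3, 1 and 3 lower, beside the same shares of all genes. Without the newborns of low GAPDH ratio the first comparison had 2 higher and 2 lower in the SCF list and 1 and 1 in the IGF1 list, and the second 1 and 0 in the SCF list and 1 and 2 in the IGF1 list. IGF2 fell by 2.62 at 188 dpn against 28 dpn (adjusted p = 2.5e-05), and IGF1 fell by 1.78 at 1 dpn against 94 dpc (adjusted p = 0.00072), or by 1.73 without the 3 newborns (adjusted p = 0.0044). The IGF1 values are those of its brightest probe set, and no other of its 3 probe sets passed in the comparison of all samples.

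Relatives of both genes were compared as a background for the pair. Of 14 listed FKBP genes other than FKBP5, 12 were measured, and at 1 dpn against 94 dpc 1 was higher and 7 were lower, with a median of -0.73, against 13.7% and 19.4% of all genes. The counts were 1 and 5 without the newborns of low GAPDH ratio, 2 and 4 after centring and 2 and 6 after quantile normalization. At 188 dpn against 94 dpc 2 were higher and 7 lower, with a median of -0.88, against 19.5% and 27.4% of all genes. There centring gave 4 and 6, and quantile normalization 3 and 6. FKBP10, FKBP14, FKBP9 and FKBP7, chaperones of the endoplasmic reticulum, fell by 3.37 (adjusted p = 3.3e-09), 2.24 (2.6e-07), 2.34 (1.6e-08) and 2.54 (1.9e-07) in that comparison, in which FKBP5 had a difference of 3.36. Of 23 listed FBXO genes other than FBXO32, 12 were measured. At 188 dpn against 28 dpn only FBXO31 was higher and none was lower, against 5.78% and 12.5% of all genes. Against 94 dpc 3 were higher and 2 lower, and 6 were higher and 0 lower both after quantile normalization and after centring, so the split of this family depends on the scaling. FBXO6, an F-box protein for glycoproteins, was higher by 1.66 ± 0.35 (adjusted p = 0.00061) in the comparison with 94 dpc, where FBXO32 had 2.74.

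**Figure D4:**
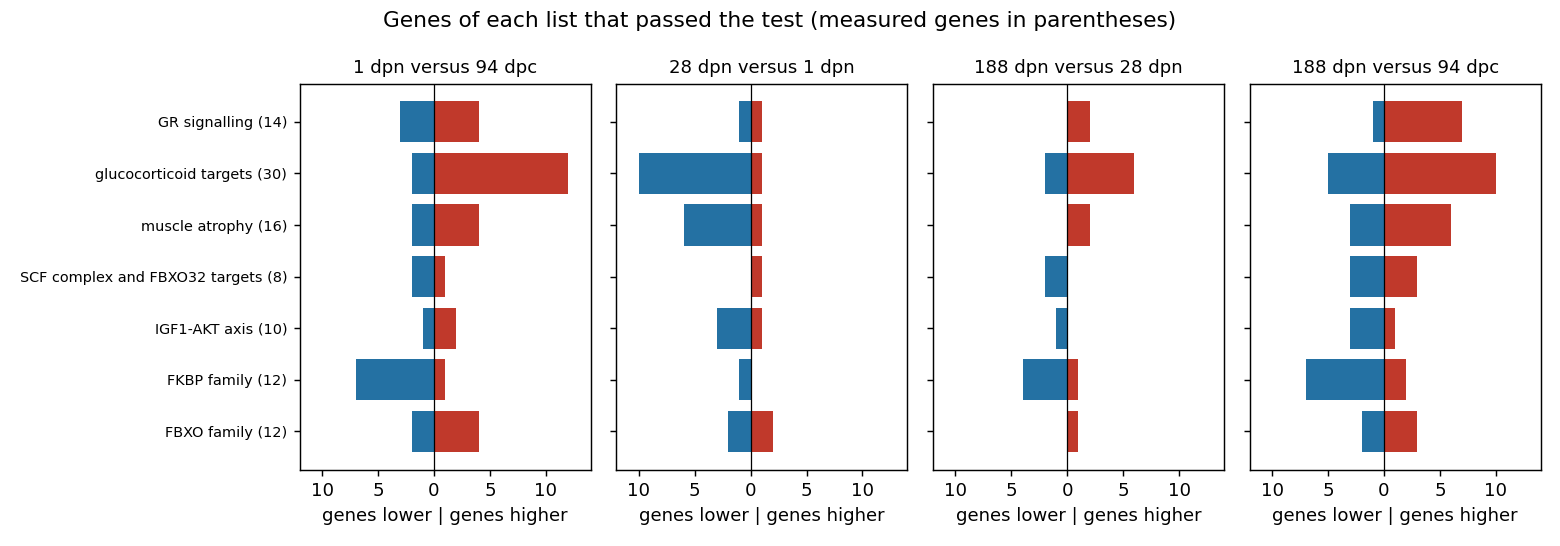
Number of measured genes of each of 7 lists called lower (blue, left of 0) and higher (red, right of 0) in 4 comparisons of stages, with the number measured in parentheses; FKBP5 and FBXO32 are in none of the lists. Glucocorticoid targets have 12 genes higher in the first comparison and 10 lower in the second, and FKBP genes have 7 lower in the first and in the last, by the values as deposited.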

How the data were processed

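Total RNA of 23 samples was labelled with biotin from 0.5 ug and hybridised to 1 porcine array each, per the labels' protocols. The authors deposited linear intensity values of 24123 probe sets. The submitters' processing notes name GCOS 1.1.1 and give it no role. The summarisation, the background correction and the genome build were not given in the sources used here, and detection calls were not used, so no probe set is called absent. The 2% trimmed mean was about 500 on every array, from which the intensities were taken as scaled to one target, and a general shift on 1 array would move all of its values. The number of arrays limits the precision.

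Stages came from the labels, and replicate numbers follow accession order. The 124 control probe sets were left out, and limma 3.58.1 (lmFit and eBayes, R 4.3.3) was fitted with 1 mean per stage to log2(signal + 16) of 23999 probe sets, two-sided, with Benjamini-Hochberg adjustment per comparison. Genes were named from probe sets with 1 symbol in the platform annotation (10069, with 198 of several symbols and 13732 of none) and represented by the probe set of highest mean. Of 6765 genes, 6693 were found by identifier in the RefSeq table of pig genes. Named were FKBP5 and FBXO32, the 5 genes most like each, up to 4 called genes of largest change per list and comparison, and 11 genes of the receptor and atrophy pathways fixed by name, of which TRIM63 was not analysed here. The members, the 7 lists and this rule were chosen with earlier results of these data known. The fit was tested on simulated data with the same spread at all stages. Per comparison it found 30 to 37 of 100 planted log2 differences of 1 and 80 to 85 of 100 of 2, with 5 to 9 false calls. A gene that did not pass can therefore still differ. Alternatives were quantile normalization, centring, pseudocounts of 1 and 64, a filter on dim probe sets, a trended and robust eBayes, array weights, fits of the compared stages alone, the mean of a gene's probe sets, the other probe sets, and leaving out each sample or the 3 of low GAPDH ratio (under 0.5). Python 3.11.15, pandas 2.3.3 and matplotlib 3.10.9 drew the figures.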

Additional observations from a re-analysis of the deposited data

Results flagged for a closer look

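NR3C1 at 28 dpn had 1 sample apart from the other 5. Its signal was 122 in 28 dpn replicate 2, and the nearest of the others was 268, so that the gap took 0.69 of the whole range of the stage. The FKBP5 signal of that sample, 452, was the lowest of its stage, and its FBXO32 signal was 1139. Among 32 groups examined in this way, about 1 in 20 would stand out by chance.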

How the results depend on the processing

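No paired analysis was possible because the labels carry no replicate numbers that stages share. Values with 1 other probe set moved beyond the spread between samples: FKBP5 differed by 1.65 at 1 dpn against 94 dpc, 1.35 at 188 dpn against 94 dpc and 0.48 at 28 dpn against 94 dpc, and FBXO32 by 0.19 at 1 dpn against 94 dpc, 3.50 at 188 dpn against 28 dpn and 3.00 at 188 dpn against 1 dpn. The cause was not tested. The other 66 member differences under alternatives other than leaving out single samples moved less than that spread, with 2 changes of sign, FKBP5 at 188 dpn against 1 dpn (0.32 without the newborns of low GAPDH ratio) and FBXO32 at 28 dpn against 94 dpc (-0.31 by the other probe set). Fits of the compared stages alone, which use fewer samples, called 2453 probe sets at 28 dpn against 1 dpn in place of 4121, 6 glucocorticoid targets in place of 11 and 2 atrophy genes in place of 7. Without the newborns of low GAPDH ratio both lists had 4 called genes there. Atrophy genes at 188 dpn against 28 dpn numbered 4 in place of 2 without those newborns, in the fit of both stages alone and with array weights. Leaving out single samples gave 5 to 10 called glucocorticoid targets (5 without 28 dpn replicate 3, 28 dpn replicate 4 or 188 dpn replicate 6) and 2 to 4 atrophy genes in that comparison. Of 92 called results of named genes, 26 lost the call in at least 1 setting and 0 turned direction, and 9 others gained one. Centring each array moved the share of higher among called probe sets at 1 dpn against 94 dpc to 59.4%, and quantile normalization to 47.3%, against 31.2% as deposited, and the median of all probe sets from -0.11 to 0.17 and 0.04. The same shares were 56.9%, 48.8% and 36.3% at 188 dpn against 94 dpc, and 46.6%, 42.5% and 33.7% at 188 dpn against 28 dpn. Groups of 5 and 6 animals, unknown dams and missing detection calls limit what can be said of dim probe sets such as the second of FKBP5.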
